A study of Homo sapiens with 4 samples.

Results

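The genes described here are 10 transcription factors of the early growth and stress response, FOS, FOSB, FOSL1, FOSL2, JUN, JUNB, ATF3, JDP2, EGR1 and EGR3. They were taken by name, with earlier results of these data known, and every probe set annotated to one of them alone was used. The shares of all genes given beside their counts are therefore description, not a test of the set. They are 10 of the 19775 genes that could be read from single-gene probe sets, and 22 of the 41097 such probe sets are theirs. The cells were SUM159, a long-established human line of mesenchymal, hormone receptor-negative breast cancer. All 4 groups carried pTRIPZ-mir-100, a construct that makes the microRNA miR-100 when doxycycline is given. The cells had been sorted by flow cytometry for aldehyde dehydrogenase (ALDH) activity, which is used to enrich stem-like breast cancer cells, and kept in suspension. Each of the 2 fractions was cultured without (control) and with DOX, and each of the 4 groups has 1 Affymetrix array. The titles give 10 h of doxycycline, whereas the sample descriptions give 13 h and doxorubicin, so the word DOX stands for the treated groups. Cells without the construct were not analysed here, and effects of the drug and of miR-100 cannot be told apart. With 1 array per group, a difference between 2 arrays has no replicate check, and precision is limited by how few arrays there are.

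AP-1 is a dimer of basic leucine zipper proteins. Jun proteins pair with each other or with Fos proteins, and the pair binds a short DNA element in promoters and enhancers of genes for proliferation, invasion and inflammation. FOS, FOSB, JUN, JUNB, EGR1 and EGR3 are immediate early genes, which growth factors, stress and cell handling switch on within minutes through MAP kinases and factors such as SRF, while FOSL1 and FOSL2 follow later and stay on in many mesenchymal tumour lines. ATF3 and JDP2 are zipper proteins that pair with Jun proteins and mostly repress, and ATF3 is also a target of the stress factor ATF4. EGR1 and EGR3 are zinc finger proteins that bind GC-rich elements.

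The sequences shown are those of the induced microRNA and of promoters that differ in the elements named above. The labels do not say which arm of miR-100 was intended, so both are given, as listed by RefSeq for GRCh38.p14 (chromosome 11, minus strand, 5′ to 3′), with bases 2 to 8, the seed, in capitals. The arrays do not measure either arm.
hsa-miR-100-5p, chr11:122152275-122152296: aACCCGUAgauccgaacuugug
hsa-miR-100-3p, chr11:122152240-122152261: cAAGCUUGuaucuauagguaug

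Of the 10 genes, 8 had windows in the RefSeq promoter table (GRCh38.p14), all but FOSL1 and EGR3, with 11 windows in all. The 250 bases before each start were searched on both strands for the AP-1 element TGACTCA, the CRE TGACGTCA, its part TGACGT (which every CRE contains), the CArG box bound by SRF, the EGR element as GCGTGGGCG or GCGGGGGCG, and the C/EBP-ATF composite element TGATGNAA. Of all 35116 windows, 4.20% held the AP-1 element, 1.65% the CRE, 7.10% TGACGT, 1.16% the CArG box, 5.37% the EGR element and 3.14% the composite element. EGR1, FOS and the upstream start of ATF3 are printed because they differ in these matches, which are in capitals, all on the plus strand and 5′ to 3′. EGR1 held 2 CArG boxes, beginning 105 and 83 bases before the start, and TGACGT (read on the other strand) at 136 and 67. FOS held TGACGT at 64. The upstream window of ATF3 held the composite element at 191, and its other window held none of the elements. Bases further upstream than 250 were not searched, so an element missing from a window may lie outside it. Of the promoters not printed, FOSB held TGACGT at 60 and FOSL2 at 66. Windows of JDP2 held TGACGT at 97, the composite element at 16 and EGR elements at 241 and 27. JUN and JUNB held none of the elements. Neither the AP-1 element nor the whole CRE was in any of the 11 windows. A match is a description of the letters, and these arrays do not measure binding.
EGR1, chr5:138465229-138465478: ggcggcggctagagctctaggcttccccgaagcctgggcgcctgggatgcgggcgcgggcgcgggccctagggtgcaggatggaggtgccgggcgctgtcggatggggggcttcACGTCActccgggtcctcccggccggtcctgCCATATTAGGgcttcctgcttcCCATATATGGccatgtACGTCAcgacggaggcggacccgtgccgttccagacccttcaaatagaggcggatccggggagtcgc
FOS, chr14:75278578-75278827: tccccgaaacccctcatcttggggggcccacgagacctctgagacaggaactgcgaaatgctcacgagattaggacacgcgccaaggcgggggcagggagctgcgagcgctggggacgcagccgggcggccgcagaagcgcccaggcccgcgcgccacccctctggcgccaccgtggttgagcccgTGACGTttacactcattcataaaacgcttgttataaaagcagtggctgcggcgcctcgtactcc
ATF3, chr1:212565157-212565406: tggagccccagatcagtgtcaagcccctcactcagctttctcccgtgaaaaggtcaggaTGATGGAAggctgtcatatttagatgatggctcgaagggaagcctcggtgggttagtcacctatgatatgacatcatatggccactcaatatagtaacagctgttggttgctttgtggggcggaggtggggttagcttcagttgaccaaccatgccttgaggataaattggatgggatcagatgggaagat

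Values are log2 RMA summaries. A probe set is called measured where it reached a log2 level of 6, near the array medians of 6.18 to 6.22, in at least 1 array compared, and 21 of the 22 member probe sets reached it in at least 1 of the 4 arrays. For each gene the probe set with the highest mean stands for it, and a difference is called at 2-fold, a log2 difference of 1. The cells carried the marks of the line, with VIM at 13.64 to 13.79 and CD44 at 12.44 to 12.82 over the 4 arrays, and ESR1, PGR, CDH1 and EPCAM under 6 in every array, but ERBB2 lay at 9.22 to 10.17, and the epithelial keratins KRT8 (9.93 to 10.51), KRT18 (11.97 to 12.45) and KRT5 (5.76 to 7.51) were measured too. Of 7 immune markers with a probe set, 6 were under 6 in every array, and MS4A1 was at 6.21 in the ALDH-positive DOX array. ALDH1A1, which the sort relates to, was at 11.77 in the ALDH-positive control, 10.66 in ALDH-positive DOX, 10.72 in the control of the ALDH-negative cells and 10.86 in their DOX array. ALDH1A3 was at 6.48, 6.64, 5.86 and 7.79 in the same order, and so was highest in the ALDH-negative DOX array. Of 6 endothelial and blood markers, VWF, CDH5 and PPBP were under 6 in all 4 arrays. PECAM1 was higher in the ALDH-negative arrays (9.77 and 9.62, against 5.96 and 7.56). KDR was higher in the ALDH-positive ones (8.21 and 7.53, against 5.13 and 4.77). So was HBB on a shared probe set, one ending in _x_at (6.98 and 6.44, against 5.77 and 5.62). Without shared probe sets HBB differed by 0.18 in the controls and 0.02 in the DOX arrays. The part of these markers in the ALDH differences was not tested.

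DOX-treated ALDH-positive cells had lower values for all 10 genes than their control, by size from JDP2 at a log2 difference of -2.03 to FOSL2 at -0.15. The median was -0.48, against 0.12 over all 12151 genes measured in this pair, of which 39.1% lay below 0. ATF3, JDP2 and EGR3 passed 2-fold lower, 3 of 10, where 2.3% of all genes did. None passed 2-fold higher, against 3.47% of all genes. In ALDH-negative cells the same treatment went with 7 of the 10 above 0 and 3 below, a median of 0.05 against -0.00 over 11819 genes, and no member past 2-fold either way. In that pair 0.271% of all genes passed higher and 0.0508% lower.

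**Figure D1:**
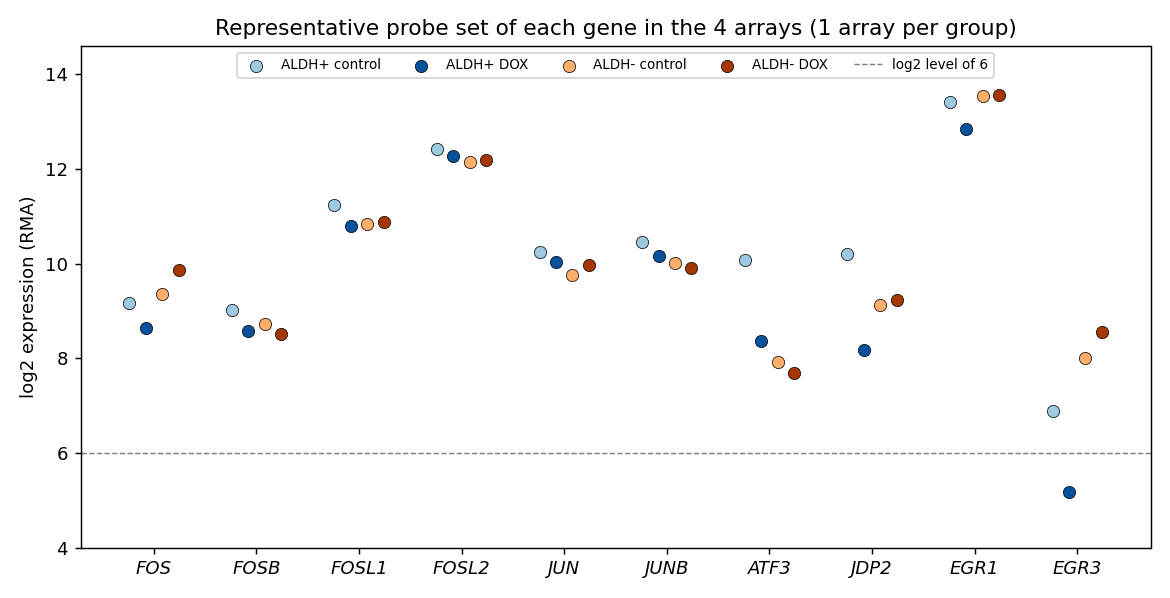
Log2 expression (vertical axis) of the probe set that stands for each of the 10 genes (horizontal axis) in the 4 arrays, 1 point per array, with a dashed line at the level of 6. EGR3 crosses that line, at 5.17 in ALDH-positive DOX and 8.55 in ALDH-negative DOX, while the 4 points of FOSL2 lie between 12.14 and 12.42.

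The order of the arrays differed between genes. The ALDH-positive control array had the highest value for 7 of the 10 members (FOSB, FOSL1, FOSL2, JUN, JUNB, ATF3 and JDP2), while 19.1% of all 12365 measured genes were highest there. The ALDH-positive DOX array had the lowest value for 5 (FOS, FOSL1, JDP2, EGR1 and EGR3), against 26.1% of all genes, and the highest for none, against 41.9%. FOS, EGR1 and EGR3 were highest in ALDH-negative DOX.

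Probe sets of the same gene and RNA controls were compared as well. Among genes with at least 2 measured probe sets, the DOX differences of a gene's probe sets lay 1 log2 or more apart for 24.1% of 6455 genes in ALDH-positive cells and for 0.365% of 6298 in ALDH-negative cells. The 3′ and 5′ control probe sets of 18S ribosomal RNA differed by -1.90 and -1.94 between DOX and control in ALDH-positive cells, against 0.45 and 0.20 in ALDH-negative cells, while the middle 18S probe set differed by -0.30 and 0.07. For ACTB the 3′ control probe set exceeded the 5′ one by 3.11 in the ALDH-positive control, 3.50 in ALDH-positive DOX, 3.70 and 3.87 in the ALDH-negative control and DOX arrays. For GAPDH this excess was 0.56, 0.33, 0.87 and 0.98 in the same order, so with DOX in ALDH-positive cells it was larger for ACTB and smaller for GAPDH. The part of these in the results was not tested. Of the 5 members with several measured probe sets, 3 (FOSL2, JDP2 and EGR1) had them 1 log2 or more apart in the ALDH-positive pair and none in the ALDH-negative pair. Over single probe sets, 20 of the 21 measured ones of the members lay below 0 in the ALDH-positive pair. Their median was -0.43, against 0.05 over all 24213, whose share below 0 was not computed. Of the 21, 6 passed 2-fold lower, where 5.78% of all did. Probe sets of the same gene are not separate observations, and the 6 include both measured ones of ATF3.

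**Figure D2:**
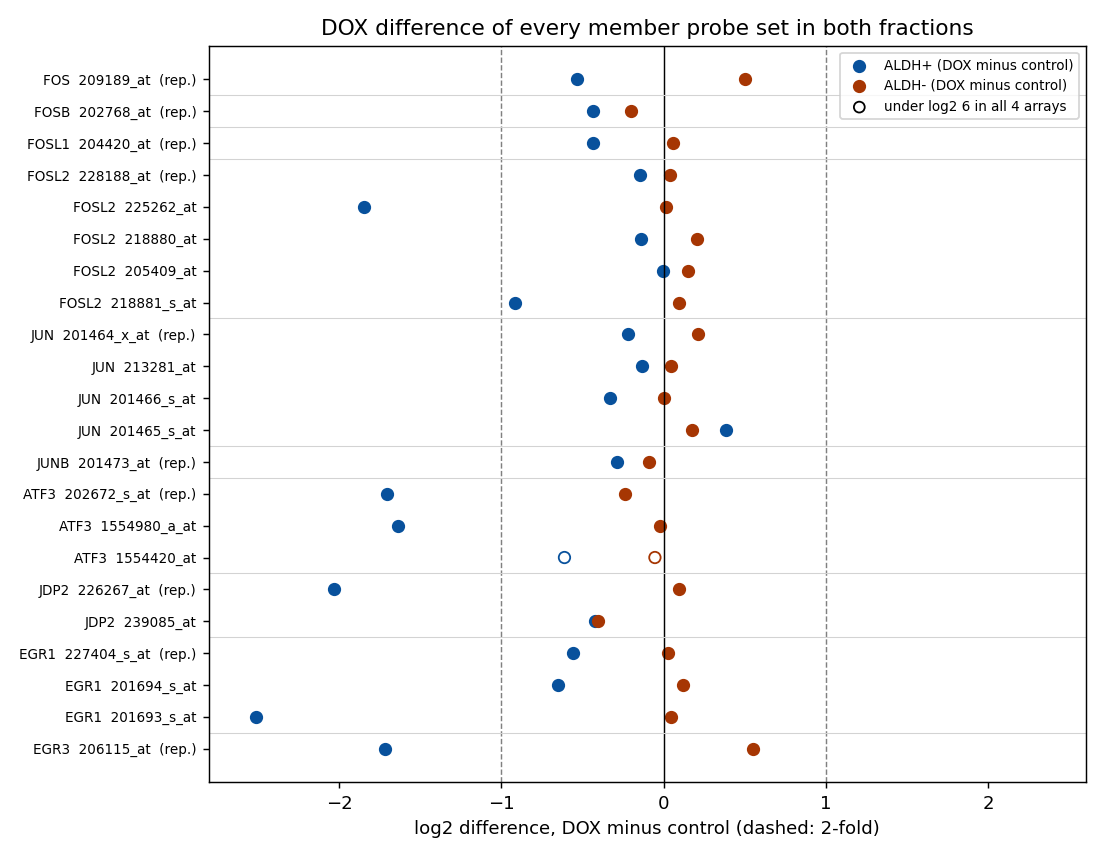
Log2 difference between DOX and control (horizontal axis) for each of the 22 member probe sets (rows, grouped by gene, with the one that stands for the gene marked rep.), blue for ALDH-positive and brown for ALDH-negative cells. Open points are under a level of 6 in all 4 arrays, and the ALDH-positive points of EGR1 spread from -2.51 to -0.56 while its ALDH-negative points lie within 0.03 to 0.12.

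Among the Fos proteins, FOS itself had the widest spread on the probe set that stands for the gene. FOS (probe set 209189_at) was at 9.18 in the ALDH-positive control, 8.64 in ALDH-positive DOX, 9.36 and 9.86 in the ALDH-negative control and DOX arrays. With DOX it was lower in ALDH-positive cells (-0.54) and higher in ALDH-negative cells (0.50), so the fractions differed by -0.18 without DOX and by -1.22 with it. FOSB, a close relative of FOS, was at 9.01, 8.58, 8.73 and 8.52 in the same order of arrays, and lay lower with DOX in both fractions, by -0.43 and -0.20.

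FOSL1 and FOSL2 encode the Fos-related proteins that lack a strong activation domain. FOSL1 was at 11.23 in the ALDH-positive control and at 10.80, 10.83 and 10.89 in the other 3 arrays, so that the control of the ALDH-positive cells was the high one. FOSL2 was at 12.42, 12.27, 12.14 and 12.18 on its brightest probe set (228188_at). A second FOSL2 probe set, 225262_at, was at 10.44 in the ALDH-positive control and 8.59 in ALDH-positive DOX, but at 9.50 and 9.52 in the ALDH-negative arrays. Its DOX difference of -1.85 in ALDH-positive cells stands beside values of -0.15, -0.14 and -0.01 on 3 other FOSL2 probe sets and -0.91 on 218881_s_at, which was near the level of 6. The FOSL2 probe sets gave no common size for this difference.

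No Jun probe set passed 2-fold in any pair. JUN, the main partner of the Fos proteins, was at 10.26 in the ALDH-positive control, 10.04 in ALDH-positive DOX, 9.77 and 9.98 in the ALDH-negative control and DOX arrays (201464_x_at). On its 4 probe sets the DOX difference ran from -0.33 to 0.39 in ALDH-positive cells and from 0.00 to 0.21 in ALDH-negative ones, and the ALDH difference of the controls from 0.36 to 0.63. JUNB, which can restrain JUN, was at 10.45, 10.17, 10.01 and 9.92 in the same order. Both ALDH-positive arrays lay above both ALDH-negative arrays for JUNB and on each of the 4 probe sets of JUN.

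ATF3 had the largest ALDH difference of the 10 genes in the control arrays. It was at 10.07 in the ALDH-positive control, 8.36 in ALDH-positive DOX, 7.93 and 7.69 in the ALDH-negative control and DOX arrays (202672_s_at). The ALDH-positive control thus stood 2.14 above the ALDH-negative control, and the DOX difference was -1.70 in ALDH-positive cells and -0.24 in the others. The probe set 1554980_a_at gave 8.0, 6.37, 6.53 and 6.50, with differences of 1.48 between the controls and -1.63 with DOX. The DOX arrays differed by 0.68 between fractions on the first of these and by -0.13 on the second. The third probe set, 1554420_at, was under 6 in all 4 arrays and is not a measurement of level.

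JDP2, a repressor closely related to ATF3, had 2 probe sets that disagreed. On 226267_at it was at 10.20 in the ALDH-positive control, 8.17 in ALDH-positive DOX, 9.13 and 9.22 in the ALDH-negative control and DOX arrays. On 239085_at it was at 8.73, 8.30, 6.87 and 6.47, with both ALDH-positive arrays above both ALDH-negative ones. The DOX difference in ALDH-positive cells was -2.03 on the first and -0.43 on the second. The ALDH difference was 1.08 and 1.86 in the controls, but -1.05 and 1.83 in the DOX arrays, so that its direction with DOX depends on the probe set.

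EGR1, the best studied of the EGR factors, was at 13.41 in the ALDH-positive control, 12.85 in ALDH-positive DOX, 13.54 and 13.56 in the ALDH-negative control and DOX arrays on 227404_s_at. The ALDH-positive DOX array was the low one on all 3 of its probe sets. The DOX difference there was -0.56 on 227404_s_at, -0.65 on 201694_s_at and -2.51 on 201693_s_at, where the level went from 8.73 to 6.22. In ALDH-negative cells the 3 differences lay between 0.03 and 0.12. EGR1 did not pass 2-fold on the probe set that stands for it, and with the mean of its probe sets the DOX difference was -1.24.

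EGR3, which is induced after EGR1 and shares its DNA element, had the widest range of the 10 genes. It was at 6.89 in the ALDH-positive control, 5.17 in ALDH-positive DOX, 8.0 and 8.55 in the ALDH-negative control and DOX arrays (206115_at, its single probe set). Both ALDH-positive arrays lay below both ALDH-negative ones, by -1.11 in the controls and -3.38 with DOX. The level of 5.17 is under 6, in the range of background, so the size of the last value and of the DOX difference of -1.72 in ALDH-positive cells is uncertain. With levels under 6 set to 6 they were -2.55 and -0.89, and the second no longer passed 2-fold.

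The DOX differences of the 2 fractions were set against each other directly. All 10 genes had a lower DOX difference in ALDH-positive than in ALDH-negative cells, with a median of -0.54 against 0.11 over 12365 genes, of which 39.5% lay below 0. FOS (-1.04), ATF3 (-1.46), JDP2 (-2.13) and EGR3 (-2.27) passed 2-fold, 4 of 10, where 2.4% of all genes did, and none passed in the other direction, where 3.78% did. On its other probe set, 239085_at, JDP2 was at -0.02. This difference between fractions combines all 4 arrays, has no replicate and was not tested. It contains the DOX difference of ALDH-positive cells given above, so its counts are not a separate result.

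Between fractions, the control arrays had ATF3 and JDP2 2-fold or more higher and EGR3 2-fold or more lower in ALDH-positive cells. The median over the 10 was 0.34 against -0.00 over 12052 genes, 6.09% of which passed higher and 4.4% lower. Of 21 measured member probe sets, 4 passed 2-fold higher, both of JDP2 and the 2 measured ones of ATF3, against 5.9% of all probe sets. This comparison and the DOX comparison of ALDH-positive cells share the ALDH-positive control array, so a high value there moves both, and their values are given side by side only. In the DOX arrays, one of which the DOX comparison of ALDH-positive cells also uses, FOS (-1.22), JDP2 (-1.05) and EGR3 (-3.38) passed 2-fold lower and none higher, with a median of -0.02 against 0.08. Of 12228 genes, 5.32% passed lower and 11.4% higher. Of 20 member probe sets measured there, 4 passed 2-fold lower, against 8.54% of all probe sets, and 1 passed higher, against 10.2%. That one was 239085_at of JDP2 (1.83), whose other probe set was among the lower ones.

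An additive limma model over the 4 arrays, with terms for ALDH fraction and DOX, used each treatment as the repeat of the other. It leaves 1 residual degree of freedom per gene, and unequal responses of the fractions count as error. The SEs are moderated, drawn mostly from the other genes (prior of 11.6 degrees of freedom against 1). They are therefore not a gene's own spread over the 2 pairs, which for EGR3 were -1.11 and -3.38. Its p-values rest on the spread of single arrays, and nothing in the labels shows that these came from separate cultures. An exact permutation of 2 against 2 arrays could not go below p = 0.333. ATF3 was higher in ALDH-positive cells by 1.41 ± 0.34 (SE, limma adjusted p = 0.0103), in both pairs on 202672_s_at. On 1554980_a_at the DOX pair was at -0.13. EGR3 was lower, at -2.25 ± 0.42 (SE, limma adjusted p = 0.00275), and EGR1 was lower, at -0.42 ± 0.11 (SE, limma adjusted p = 0.0170), each in both pairs. For EGR1 the fractions differed by only -0.12 in the controls and by -0.71 in the DOX arrays. So 1 member of 10 passed higher, where 13.5% of all genes did, and 2 passed lower, where 9.58% did. The other 7 did not pass, among them FOS at -0.70 ± 0.29 (SE, limma adjusted p = 0.105).

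These 3 calls depend on the setting. Without the trend of variance on level, none passed, with limma adjusted p = 0.0671 for ATF3, 0.0532 for EGR3 and 0.269 for EGR1, and none passed without a filter on level. When shared probe sets (names ending in _x_at or _s_at) were left out, ATF3 was at 0.67 ± 0.37 (SE, limma adjusted p = 0.214), and EGR1 had no probe set left. In a fit over 24852 probe sets, JDP2 passed on 239085_at, at 1.84 ± 0.27 (SE, limma adjusted p = 0.00597), but not on 226267_at, at 0.01 ± 0.45 (SE, limma adjusted p = 0.992).

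**Figure D3:**
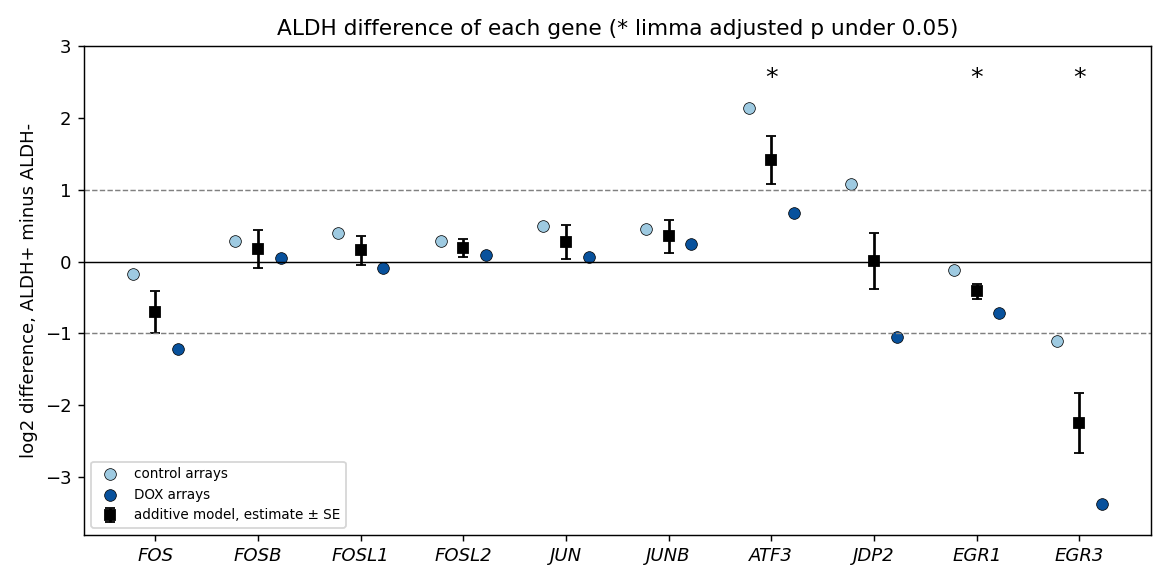
Log2 difference between ALDH-positive and ALDH-negative cells (vertical axis) for each gene, in the control arrays (light points), in the DOX arrays (dark points) and as the estimate of the additive model with its SE (squares and bars), with a star where the limma adjusted p was under 0.05. The point of JDP2 lies at 1.08 without DOX and at -1.05 with it, while both points of ATF3 lie above 0 and both of EGR3 below -1.

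For the DOX term none of the 10 genes passed in the limma fit. The member of smallest p was ATF3 at -0.97 ± 0.34 (SE, limma adjusted p = 0.855), and EGR3 was at -0.58 ± 0.42. At an unadjusted p under 0.05 there were 3 members, ATF3, JDP2 and EGR1, and 652 of all 12365 genes. Over all genes, 1 passed higher after adjustment (0.00809%) and 0 lower (0%).

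Related genes were read from lists, with their count and median, and no list is a test of the members. CD44 and NAB2 stand in 2 of them. Of 7 measured other AP-1 family genes, none passed 2-fold in any of the 4 pairs of arrays. MAFF, a small Maf protein that pairs with Fos proteins, came nearest at 0.98 between the controls and passed higher in the additive model at 0.65 ± 0.18 (SE, limma adjusted p = 0.0230). JUND, the Jun gene that is constantly on in most cells, was at 12.85, 12.92, 12.63 and 12.73. The EGR corepressors NAB1 and NAB2 were the 2 measured genes of their list, and their DOX differences in ALDH-positive cells were -0.01 and 0.20. Among 9 regulators of the SRF, TCF and CREB kind, MRTFA, an actin-sensing partner of SRF, was at 0.81 and CREB1 at -0.77 with DOX in ALDH-positive cells, while SRF itself was at -0.02. None of the 9 passed the additive model for ALDH.

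Of 12 measured genes of the MAP kinase cascade that induces these factors, none passed 2-fold with DOX in either fraction. Of all genes, 3.47% passed higher and 2.3% lower in ALDH-positive cells, and 0.271% and 0.0508% in ALDH-negative cells. MAP2K2, a kinase of the ERK branch, was at 0.98 in the ALDH-positive pair, and MAP2K1, its close relative, passed lower in the additive model for ALDH at -0.48 ± 0.16 (SE, limma adjusted p = 0.0433).

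Other immediate early genes lay mostly below 0 with DOX in ALDH-positive cells, 18 of 23, with a median of -0.28 against 0.12 over all genes. SGK1, a kinase of the AKT family, was at -1.30 and MYC at -1.13, and these 2 passed 2-fold lower, beside 2.3% of all genes. DUSP1, the phosphatase that switches MAP kinases off, was at -0.88. In ALDH-negative cells 12 of 24 lay below 0 and none passed 2-fold. Between fractions the additive model called 3 higher and 6 lower of 24 in ALDH-positive cells, beside 13.5% and 9.58% of all genes. CCN1, a matrix protein of the early response, lay 2.39 ± 0.22 (SE, limma adjusted p = 2.1e-05) above its ALDH-negative level, and the orphan nuclear receptors NR4A2 and NR4A3 were lower, at -2.50 ± 0.27 and -1.44 ± 0.28 (SE), with NR4A3 under 6 in both ALDH-positive arrays.

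Genes often bound by AP-1 went both ways with DOX in ALDH-positive cells, with 3 of 16 passing 2-fold higher and 4 lower, beside 3.47% and 2.3% of all genes, and a median of -0.01. PLAU and PLAUR, urokinase and its receptor, were at 1.24 and 1.17, and FSTL1 at 1.03, while HMOX1 (-2.91), CXCL8 (-2.09), IL6 (-1.98) and PTGS2 (-1.30) passed lower. PTGS2 was at -0.99 with levels under 6 set to 6. Between fractions the additive model called 10 of 18 lower and 2 higher in ALDH-positive cells, beside 9.58% and 13.5% of all genes. MMP1 and MMP3, collagenase and stromelysin, were the lowest at -5.84 ± 0.28 and -3.49 ± 0.28 (SE), both under 6 in the ALDH-positive arrays (-4.13 and -1.89 between the controls with levels under 6 set to 6), and FSTL1 (2.11 ± 0.25) and LIF (1.35 ± 0.29) were the 2 higher. Of 9 measured EGR target genes, 2 passed 2-fold lower with DOX in ALDH-positive cells, THBS1 (-3.54, or -1.22 without shared probe sets) and the coagulation factor F3 (-1.35), and TGFB1 passed higher (1.37, or -0.16 without shared probe sets).

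ATF4 stress genes were set beside ATF3. Of 9 measured, 7 were 2-fold or more higher in ALDH-positive than in ALDH-negative cells in the control arrays, beside 6.09% of all genes. In the DOX arrays 7 were, beside 11.4% of all genes. The medians were 1.82 and 1.72, and 8 passed higher in the additive model, beside 13.5% of all genes. ATF3 differed by 2.14 without DOX and 0.68 with it on 202672_s_at, and by 1.48 and -0.13 on 1554980_a_at. With DOX in ALDH-positive cells none of the 9 passed 2-fold, 6 lay below 0 and the median was -0.07, while ATF3 was at -1.70. CHAC1, an enzyme that degrades glutathione, had the largest difference of the 9 at -0.92, and DDIT3, a zipper factor of the same stress response, was at 0.19.

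**Figure D4:**
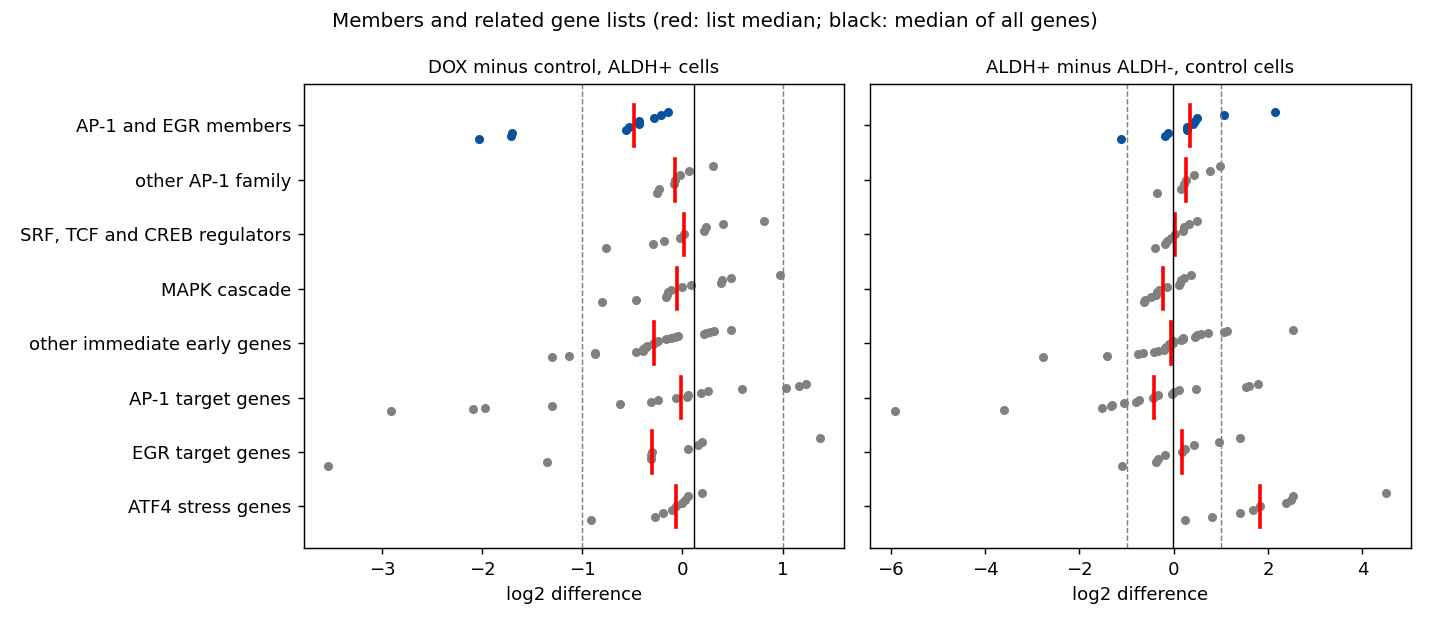
Log2 differences (horizontal axes) of the 10 members (blue) and of the measured genes of 7 related lists (grey), for DOX against control in ALDH-positive cells (left) and for ALDH-positive against ALDH-negative control cells (right), with list medians in red and the median of all genes in black. On the left the members' median is at -0.48 and that of the ATF4 stress genes at -0.07, and on the right these are at 0.34 and 1.82.

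The genes with the most similar 4 values were sought for the 4 members whose values spanned 1 log2 or more, among 2933 others that did so, by the largest deviation in any array after each gene was centred on its own mean. With 4 arrays such likeness is a description, and nothing about shared control follows from it. FOS was nearest to FNDC3A (0.04), PSD3 (0.12) and EFNB2 (0.12), and JDP2 to MPV17L (0.16), LINC00598 (0.19) and ZNF460 (0.20). ATF3 was nearest to PER3 (0.32), HERC5 (0.33) and RGCC (0.35), and EGR3 to EVI2B (0.28), FUT8 (0.34) and SLC35D1 (0.41).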

How the data were processed

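RNA of 4 sorted and treated samples of SUM159 cells was hybridised to Affymetrix arrays, 1 per group. The authors deposited log2 values from RMA, per the labels, which were used as they are. RMA adjusts background, sets all arrays to one distribution and summarises probes, so a shift common to all genes would be removed. Of 54675 probe sets, 41097 had 1 gene in the platform annotation, 1801 had several and 11777 had none. Probe sets with several genes were left out.

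The 10 members and the lists were chosen with earlier results of these data known. All members are named, and up to 3 genes of the largest difference per list and comparison. Other list genes, such as JUND, SRF and those that make up a small count, were chosen after their values were seen. Pairs of arrays were compared by size alone, at 2-fold with a level of 6 in at least 1 array. The additive model used limma 3.58.1 in R 4.3.3 over all 12365 genes (lmFit, eBayes with trend, prior of 11.6 degrees of freedom). Its p-values were two-sided, with Benjamini-Hochberg adjustment over all of these genes and a threshold of 0.05. The fit was also run on simulated data with equal noise for all genes and no DOX effect. That run cannot judge calls on genes whose DOX differences were unequal between fractions. Alternatives changed the scaling (median centring, cyclic loess), the filter (none, or 7), the floor (6), the choice of probe set (mean over a gene, shared ones left out), the fold (1.5), the variance settings and the unit of the fit. Python 3.11.15, numpy 2.4.6 and pandas 2.3.3 were used, with promoter and microRNA sequences from RefSeq.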

Additional observations from a re-analysis of the deposited data

Results flagged for a closer look

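Probe sets were flagged where the DOX differences of the fractions had opposite signs and lay 1 log2 or more apart. This held for 6 of the 21 measured member probe sets, each below 0 in ALDH-positive and above 0 in ALDH-negative cells. The share of all probe sets that meet this rule was not computed, so the 6 are a list and not an excess. With 1 array per group these contrasts between fractions were not tested. EGR1 on 201693_s_at differed by -2.56 between fractions, EGR3 on 206115_at by -2.27, JDP2 on 226267_at by -2.13, FOSL2 on 225262_at by -1.86, FOS on 209189_at by -1.04 and FOSL2 on 218881_s_at by -1.01. The last was under a level of 6 in 3 of the 4 arrays and came to -0.04 with levels under 6 set to 6, and EGR3 came to -1.44. The ALDH-negative differences among them were small except those of EGR3 (0.55) and FOS (0.50). For EGR1, JDP2 and FOSL2 another probe set of the same gene gave -0.59, -0.02 and -0.16.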

How the results depend on the processing

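No paired analysis was possible because each group held 1 array and the labels number no replicates. The counts of members past 2-fold in the 4 pairs of arrays stayed within 1.5 times under every alternative run, except that at 1.5-fold 1 member was higher in the ALDH comparison of the DOX arrays. With probe sets averaged within genes, EGR1 joined the members lower with DOX in ALDH-positive cells, the median difference between fractions was -0.88, and in the ALDH comparison of the DOX arrays JDP2 was at 0.39 in place of -1.05 and FOSL2 at -0.26 in place of 0.09. FOSL2 was then at -0.61 with DOX in ALDH-positive cells, in place of -0.15. In the additive limma model for ALDH, 1 member passed higher and 2 lower. These counts were 0 and 0 without a filter on level and without the trend. They were 0 and 1 with the mean of probe sets and without shared probe sets. With cyclic loess and with robust estimation they were 1 and 1. In the fit over probe sets they were also 1 and 1, counting only the probe set that stands for each gene. JDP2 passed higher there too, on 239085_at, which does not stand for the gene. Over the alternatives of the model that were fitted over genes, the limma adjusted p ranged from 0.00206 to 0.214 for ATF3, from 0.00230 to 0.269 for EGR1 and from 0.000253 to 0.0671 for EGR3. In the array comparisons the members kept their direction under both scalings, except FOSB, at 0.05 between fractions in the DOX arrays, which changed sign with cyclic loess. In the model, the ALDH estimate of JDP2 changed sign under both, from 0.01 to -0.02 with median centring and -0.01 with cyclic loess. EGR3 was under 6 in the ALDH-positive DOX array (5.17) but not in the ALDH-positive control (6.89). This limits the sizes that use the DOX array.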
